A study of Mus musculus with 21 samples.

Results

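Liver RNA was compared between mice lacking cystathionine γ-lyase (Cse, gene symbol *Cth*) and comparison mice labelled WT, both fed a diet without cysteine (no Cys diet). The comparison was chosen by genotype and diet label and held 7 of the 21 libraries of the series: *Cse* KO replicates 1, 3 and 4, and WT replicates 1, 2, 3 and 4. The question was how liver transcription responds when the diet gives no cysteine and none can be made from methionine. The *Cse* KO line carries a germline deletion on a mixed background (129/C57BL/6), so the enzyme was missing from every tissue and not from the liver alone. The study's methods describe its comparison animals as heterozygous (*Cse*+/-), so WT is here the word of the labels and does not say that both alleles were intact. All animals were males of at least 9 weeks, calorie restricted throughout, and had been moved from the defined control diet (5CC7) to the same diet with cysteine removed and the other amino acids raised in proportion. The remaining 14 libraries, of both genotypes on the control diet or on a diet without tryptophan (no Trp diet), entered the fit to give a shared estimate of the spread between animals and are used below only where the genotype difference is set against that on another diet.

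Cysteine is made in the liver by transsulfuration, in which sulfur from methionine passes through homocysteine and cystathionine, and *Cse* carries out the last step. It is an amino acid of proteins, where it forms the disulfide bonds of secreted proteins, and the limiting precursor of glutathione, coenzyme A and taurine. When any amino acid runs short, uncharged tRNA activates the kinase GCN2, and the integrated stress response (ISR) slows general translation while the factor ATF4 turns on genes for amino acid synthesis, transport and tRNA charging. When thiols are depleted or oxidised, the factor NRF2 escapes its inhibitor KEAP1 and turns on detoxifying and antioxidant enzymes.

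Total counts ran from 8889951 to 18417408 in the 3 KO libraries and from 9473346 to 20644644 in the 4 WT libraries, so depth overlapped between groups. Mitochondrial transcripts took 3.77% to 5.51% of the counts in KO and 4.54% to 7.67% in WT, and *Alb*, the most abundant hepatocyte transcript, took 2.46% to 4.46% in KO and 5.91% to 6.64% in WT. The first principal component of the 7 libraries held 54.0% of their variance and separated the genotypes, and the second held 13.5% and set KO replicate 1 apart from the other libraries. *Cth* itself was at 8.12, 6.34 and 7.33 CPM (reads of a gene scaled to a common library size by TMM) in KO and 259.7, 263, 253 and 225 CPM in WT, so that every KO library lay far under every WT library, with a log2 fold change of -5.12 ± 0.37 (SE) and an adjusted p of 1.51e-08. Of 14370 genes tested, 4055 (28.2%) were called at an adjusted p under 0.05 by edgeR's quasi-likelihood test, 2130 higher (14.8%) and 1925 lower (13.4%) in KO. Every KO library lay above every WT library for 19.4% of the tested genes and below for 18.1%. These shares are the background for each count given below. Scaling by library totals alone, in place of TMM, moved the median log2 fold change of all genes from -0.015 to 0.20 and the calls to 3944 higher and 983 lower, so directions below are relative to the TMM scaling. Leaving out KO replicate 3, the deepest KO library, lowered the calls to 2358.

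**Figure D1:**
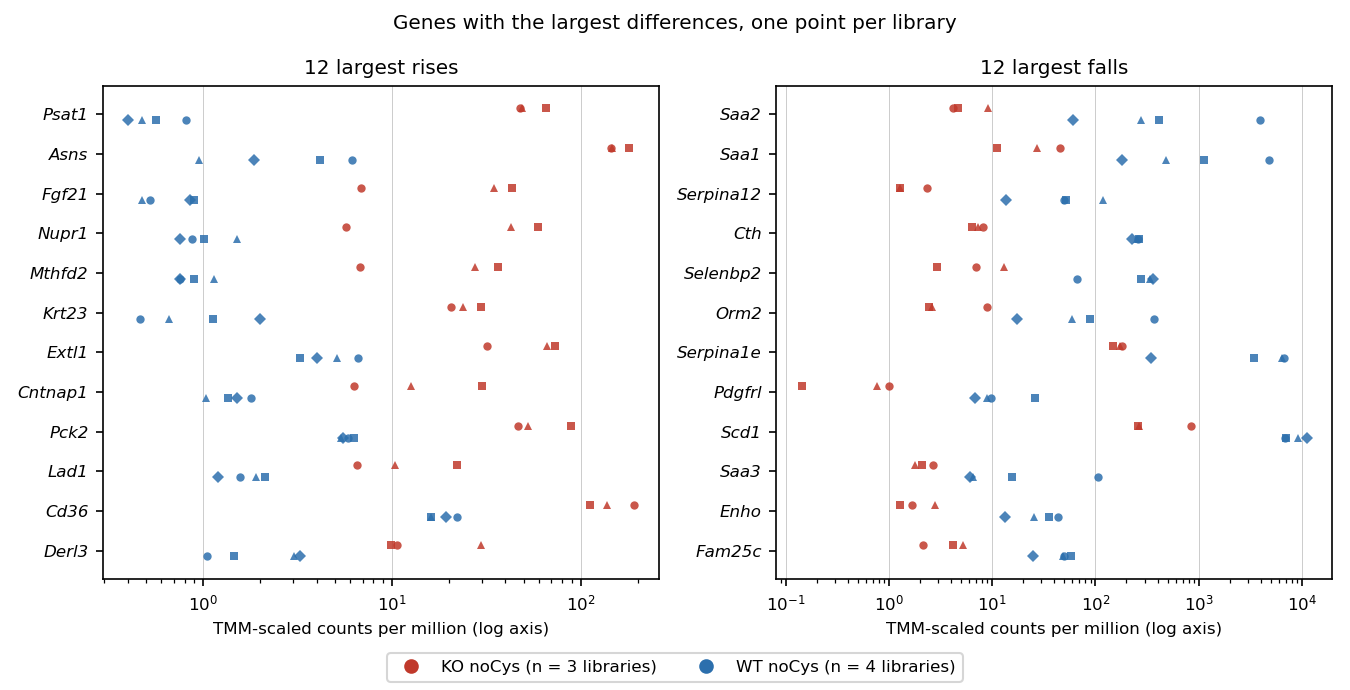
TMM-scaled CPM (log axis) of the 12 genes with the largest called rises (left) and the 12 with the largest called falls (right), 1 point per library, red for the 3 KO and blue for the 4 WT libraries on the no Cys diet, with the point shape following the order of replicates within a group. The rule that chose these genes required the red and blue points not to overlap, and the blue points of *Saa2* span from 60.5 to 3950 CPM.

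Genes of amino acid supply led the rises. *Psat1*, which makes phosphoserine on the route to serine, was at 47.5, 65.5 and 49.0 CPM in the KO libraries and at 0.817, 0.563, 0.475 and 0.403 CPM in the WT libraries. *Asns*, asparagine synthetase, was at 146, 181 and 147 CPM in KO and 6.18, 4.17, 0.950 and 1.86 CPM in WT. Every KO library lay above every WT library for both, with log2 fold changes of 6.55 ± 0.46 (SE) for *Psat1* (adjusted p = 1.4e-08) and 5.56 ± 0.40 (SE) for *Asns* (adjusted p = 1.51e-08). Without WT replicate 1, the highest WT library for *Asns*, its value was 6.15. *Mthfd2*, a mitochondrial enzyme of folate one-carbon metabolism, was at 6.77, 36.6 and 27.7 CPM in KO against 0.758, 0.901, 1.14 and 0.756 CPM in WT, a log2 fold change of 4.78 ± 0.47 (SE). KO replicate 1 was the lowest KO library for *Mthfd2* and still lay above all 4 WT libraries. *Pck2*, the mitochondrial phosphoenolpyruvate carboxykinase, whose exons overlap the predicted gene Gm10876, was at 46.5, 89.3 and 52.7 CPM in KO and 5.89, 6.31, 5.41 and 5.54 CPM in WT (3.45).

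Of 22 tested enzymes of amino acid synthesis and folate one-carbon metabolism, 13 were higher in KO and 2 lower, with a median log2 fold change of 0.72 beside -0.015 over all genes. With the 7 compared libraries fitted alone, 11 were higher and the median was 0.42. Further members of the serine and proline branches and of the mitochondrial folate branch also rose. *Phgdh*, which starts serine synthesis, rose by 2.93 on the log2 scale, *Aldh18a1* and *Pycr1*, the first and last enzymes of proline synthesis from glutamate, by 3.24 and 3.19, and the mitochondrial folate enzymes *Aldh1l2* and *Mthfd1l* by 3.22 and 2.29. Without KO replicate 3 *Phgdh* and *Aldh18a1* stood at 2.22 and 2.29, and without WT replicate 1 *Phgdh* stood at 3.52. Among the lower members *Mthfd2l*, a relative of *Mthfd2* (-0.96), lost its call with library totals alone and without KO replicate 4 (-0.92, adjusted p = 0.0556). The cytosolic folate enzymes were not called, with -0.15 for *Mthfd1*, -0.16 for *Shmt1* and -0.071 for *Aldh1l1*.

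Among 22 tested amino acid transporters of the plasma membrane, 6 were higher and 2 lower, shares of 27.3% and 9.09%. These counts were 4 and 1 without KO replicate 3, and 6 and 7 with limma-voom. *Slc7a1*, which carries arginine and lysine, rose the most (3.49 ± 0.46 (SE), adjusted p = 1.79e-05, and 2.77 without KO replicate 3). *Slc1a4*, a carrier of alanine, serine and cysteine, rose by 1.84, and *Slc3a2*, the heavy chain shared by several exchangers, by 1.44. *Slc6a6*, the taurine transporter, fell by 0.69. The system A carriers *Slc38a1*, *Slc38a2* and *Slc38a4* were not called, at -0.40, -0.52 and -0.41. The cystine importer *Slc7a11* did not pass the filter on low counts.

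Regulators of the ISR included rises, falls and genes that were not called. *Nupr1*, a stress-induced chromatin protein, was at 5.75, 59.7 and 42.9 CPM in KO and 0.875, 1.01, 1.52 and 0.756 CPM in WT, or 5.18 ± 0.53 (SE) on the log2 scale (adjusted p = 1.32e-06), and KO replicate 1 was again the lowest of the KO libraries. *Trib3*, a pseudokinase that feeds back on ATF4, rose by 2.70, the transcription factor *Atf5* by 2.42, *Chac1*, which degrades glutathione, by 2.32, and *Vldlr*, a lipoprotein receptor, by 1.85. Without KO replicate 3, *Trib3* and *Chac1* stood at 1.98 and 1.46, both still called. *Atf4* itself was not called at the transcript level (0.42, adjusted p = 0.0909), nor were the kinases *Eif2ak3* (0.43) and *Eif2ak4*, which encodes GCN2 (-0.34). *Ddit3* was called at 0.92 and lost the call without KO replicate 3 (0.66, adjusted p = 0.101); its exons overlap those of *Mars*, the methionyl-tRNA synthetase, and the strand setting of the counting was not given in the sources used here. Over all 21 tested members of this list, 10 were higher and 4 lower, or 13 and 1 with library totals alone. The lower members were *Cebpb* (-0.78), a partner of ATF4, the kinase *Eif2ak2* (-0.76), the phosphatase subunit *Ppp1r15b* (-0.23) and *Stc2* (-1.30), a secreted glycoprotein. None (0) were lower without KO replicate 3, and likewise without KO replicate 4, and 2 without WT replicate 2, 3 or 4. *Fgf21*, a hormone that the liver secretes under amino acid shortage, was at 6.88, 43.3 and 34.8 CPM in KO and 0.525, 0.901, 0.475 and 0.857 CPM in WT (5.36 ± 0.95 (SE), adjusted p = 0.000370). *Gdf15*, another stress hormone, was at 3.61, 19.5 and 17.1 CPM in KO and 4.84, 8.33, 7.60 and 2.67 CPM in WT, and was not called (1.26, adjusted p = 0.0794).

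ATF4 acts with C/EBP partners at a composite element, and stretches from promoters of rising genes that hold its letters are shown here. RefSeq promoters on GRCm38.p6, each from 250 bases before to 50 after a transcription start, were matched by symbol to 10186 of the tested genes (13062 promoters) and searched on both strands for TGATGNAAN. The element was present in 2.41% of all matched promoters, in 34 of 427 promoters (7.96%) of genes called higher by over 2-fold, and in 12 of 499 (2.40%) of those called lower by over 2-fold. Among called members of the amino acid synthesis and one-carbon list 3 of 13 promoters had a match. The counts were 4 of 14 for ISR regulators, 1 of 14 for amino acid transporters and 0 of 7 for mitochondrial tRNA synthetases. The lines below come from promoters with a match alone. Each line below gives a 29-base stretch in the direction of transcription, with its place on GRCm38.p6 and the match in capitals.
Asns (chr6:7693214-7693242): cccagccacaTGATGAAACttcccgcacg
Nupr1 (chr7:126625563-126625591): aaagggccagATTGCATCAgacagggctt
Pck2 (chr14:55540152-55540180): agccttcaaaGTTACATCAgtatcttaca
Pycr1 (chr11:120643833-120643861): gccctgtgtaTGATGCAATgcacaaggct
Chac1 (chr2:119351038-119351066): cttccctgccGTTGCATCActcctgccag
Vldlr (chr19:27216809-27216837): agcagcaataGTTGCATCAgcgctcctag
Slc1a4 (chr11:20332700-20332728): tgcctcctgcGTTGCATCAtctccagcct
Gars (chr6:55037960-55037988): tggctgcgctATTTCATCAtgcaccgggc
Iars (chr13:49682126-49682154): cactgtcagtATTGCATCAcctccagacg
Tars (chr15:11399656-11399684): caggagtcccGTTGCATCAgctggttagc
The match reads TGATG in *Asns* and *Pycr1*, and its complement CATCA in the other 8. For the gene with the second largest rise, the 250 bases before its start are given whole, in the direction of transcription (GRCm38.p6 chr6:7693210-7693459, minus strand).
Asns: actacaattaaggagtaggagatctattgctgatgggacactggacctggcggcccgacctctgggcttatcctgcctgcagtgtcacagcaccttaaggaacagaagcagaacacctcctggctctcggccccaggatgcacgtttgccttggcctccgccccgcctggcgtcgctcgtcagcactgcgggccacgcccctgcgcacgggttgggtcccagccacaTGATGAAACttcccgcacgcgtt
A match shows only that these letters occur in the window, and no binding was measured.

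Nearly every cytosolic aminoacyl-tRNA synthetase, the enzymes that load each amino acid on its tRNA, was higher in KO. Of 20 tested, 19 were called higher and 0 lower, a share of 95.0% against the background of 14.8%, and for all 20 each KO library lay above each WT library. The median log2 fold change was 0.91. *Cars*, which charges cysteine, led the list: it was at 42.2, 75.9 and 62.9 CPM in KO and 18.1, 14.8, 19.8 and 17.1 CPM in WT (1.79 ± 0.21 (SE), adjusted p = 6.81e-06), although its exons overlap those of Gm15580. *Gars*, *Iars* and *Mars*, for glycine, isoleucine and methionine, stood at 1.75, 1.55 and 1.20. The one synthetase not called was *Qars*, for glutamine (0.23, adjusted p = 0.0857). The promoter search matched 5 of the 11 promoters of called members. Without KO replicate 3 the count of called members was 17. The 17 tested synthetases of mitochondria held 8 higher and 1 lower member, with 5 higher without KO replicate 3.

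Transcripts for cytosolic ribosomal proteins, which are the bulk of the translation machinery, were also higher in part. Of 80 tested, 41 were higher (51.2%) and 1 lower (1.25%), and the median was 0.36 on the log2 scale; *Rps6* and *Rpl3* rose by 1.20 and 1.12. The count of higher members ran from 28 to 42 when 1 of the 7 libraries was left out. Many ribosomal protein genes have near-identical pseudogene copies, so their counts are uncertain. Of 76 mitochondrial ribosomal proteins, 20 were higher and 8 lower, and 12 and 3 without KO replicate 3; with library totals alone these became 43 and 0.

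**Figure D2:**
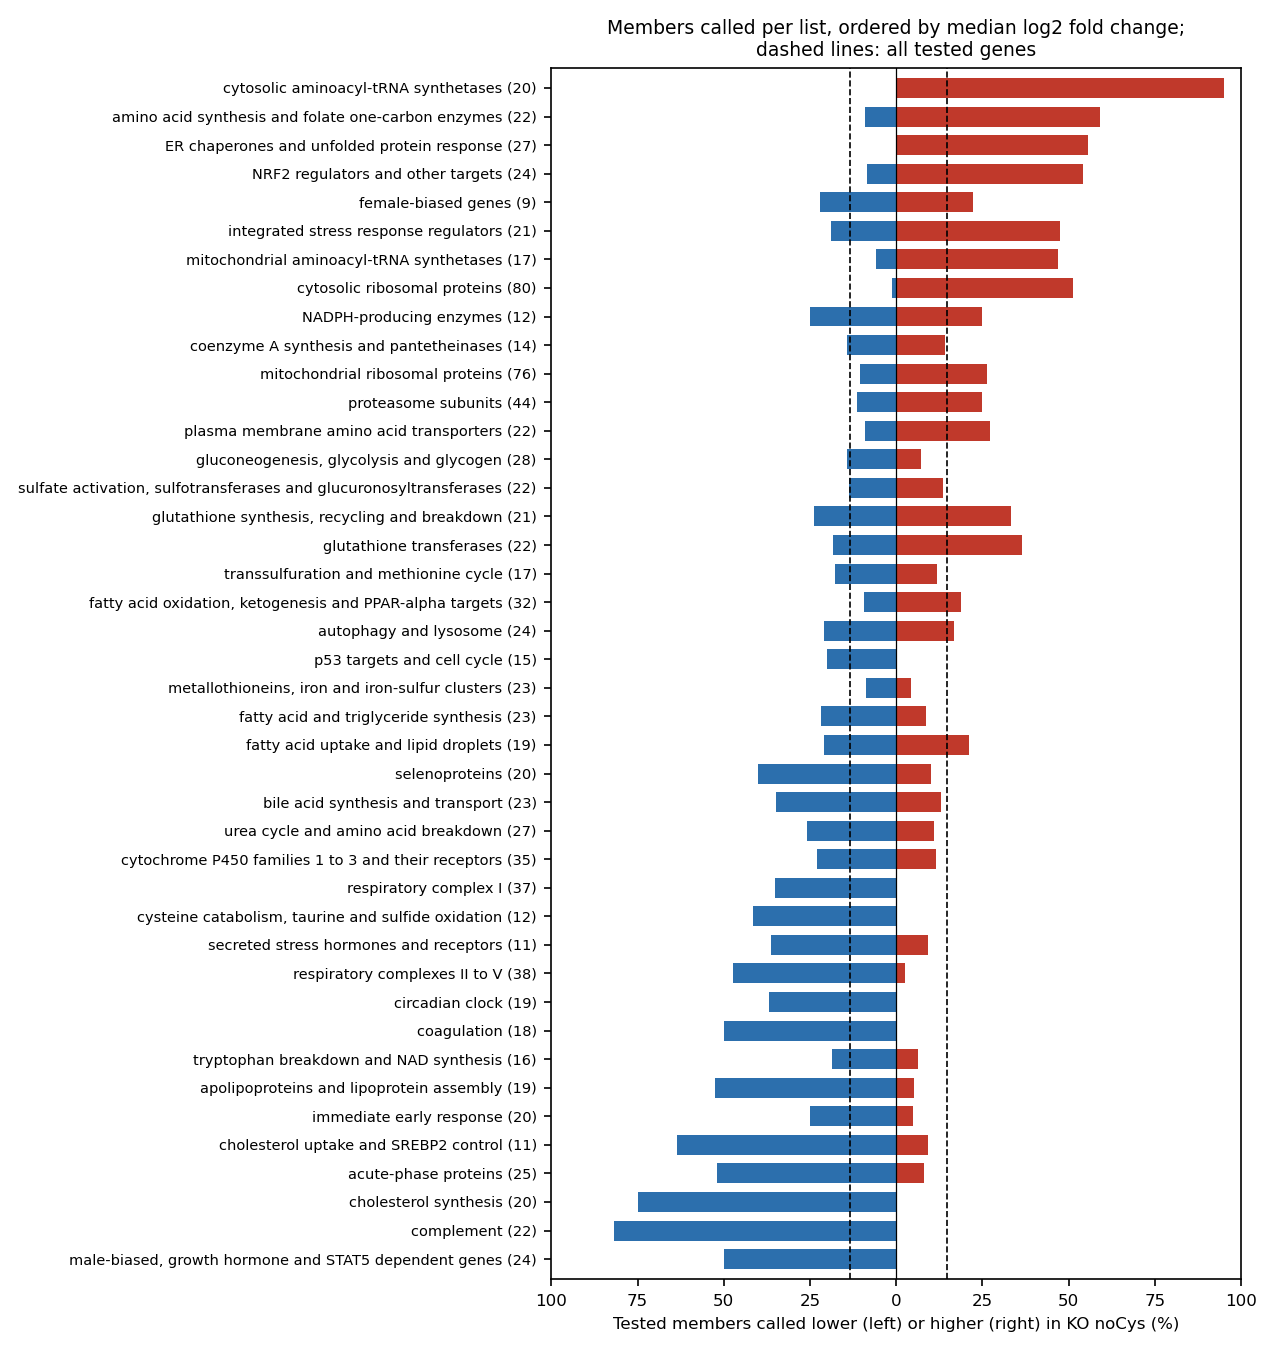
Percentage of the tested members of each gene list (number tested in brackets) called lower (bars to the left) or higher (bars to the right) in KO than in WT on the no Cys diet, ordered by the median log2 fold change, with dashed lines at the shares over all 14370 tested genes (13.4% and 14.8%). Cytosolic tRNA synthetases reach 95.0% higher, and complement and cholesterol synthesis 81.8% and 75.0% lower.

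Chaperones and quality-control proteins act in the endoplasmic reticulum (ER), where secreted proteins form their disulfide bonds. Of 27 tested members of this unfolded protein response list, 15 were called higher and 0 lower, with a median log2 fold change of 0.68. *Derl3*, part of the channel that removes misfolded proteins, was at 10.7, 9.91 and 29.5 CPM in KO and 1.05, 1.46, 3.04 and 3.28 CPM in WT, and the fold change of 2.90 became 2.20 without KO replicate 4, its highest library. *Creld2* and *Manf*, ER-resident proteins induced by misfolding, rose by 1.65 and 1.25. *Hspa5*, the main ER chaperone BiP, was at 1279, 1179 and 1527 CPM in KO and 391, 524, 514 and 741 CPM in WT (1.29 ± 0.21 (SE), adjusted p = 0.000137), and its partners *Hyou1* and *Sdf2l1* rose by 1.35 and 1.57. The protein disulfide isomerases divided: *Pdia4* rose by 1.01, while *P4hb* (0.11), *Pdia3* (0.26) and *Pdia6* (0.29) were not called, nor were the oxidases that supply their disulfides, *Ero1l* (0.29) and *Ero1lb* (0.42). With library totals alone 23 members were higher.

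The ER stress element, searched on both strands as CCAAT and CCACG with 9 unspecified bases between them after the chaperones had been seen to rise, was present in 16 of the 13062 promoters (0.122%). It was present in 5 of the 11 matched promoters of called members of this list, shown here in the direction of transcription with the match in capitals.
Derl3 (chr10:75893237-75893265): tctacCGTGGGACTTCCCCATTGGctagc
Creld2 (chr15:88819515-88819543): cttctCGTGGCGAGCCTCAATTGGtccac
Hspa5 (chr2:34772020-34772048): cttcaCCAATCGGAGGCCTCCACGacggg
Syvn1 (chr19:6046527-6046555): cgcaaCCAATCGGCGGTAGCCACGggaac
Calr (chr8:84847070-84847098): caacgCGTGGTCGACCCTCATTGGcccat
In *Hspa5* and *Syvn1* the element reads from CCAAT, and in the other 3 as its complement.

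More targets of NRF2 were higher than lower, and its own transcript was not called. *Nqo1*, a quinone reductase, was at 23.2, 22.9 and 23.7 CPM in KO and 6.24, 6.19, 6.36 and 6.55 CPM in WT (1.87 ± 0.19 (SE), adjusted p = 1.28e-06). *Abcc4* and *Abcc3*, pumps that export conjugates to the blood, rose by 2.83 and 1.46. *Srxn1*, which repairs oxidised peroxiredoxins, rose by 1.35, the aldehyde oxidase *Aox1* by 1.47, microsomal epoxide hydrolase *Ephx1* by 1.38, and the ferritin chains *Fth1* and *Ftl1* by 1.01 and 0.96. Other classical targets were not called: *Hmox1* stood at 0.0059, *Txnrd1* at 0.21 and *Prdx1* at -0.092, as did *Nfe2l2*, which encodes NRF2, at -0.083 and *Keap1* at -0.030. In all, 13 of 24 tested members were higher and 2 lower. The core of the antioxidant response element, TGACNNNGC, was present in 17.6% of promoters of genes called higher by over 2-fold and in 14.3% of all. It was present in 4 of 16 promoters of called members of this list and in 1 of 15 of called glutathione transferases. *Abcc4* held it close to the start printed below, and also close to an upstream start (chr14:118706226-118706254).
Abcc4 (chr14:118676936-118676964): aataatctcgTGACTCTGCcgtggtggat

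Glutathione transferases join glutathione to reactive compounds. *Gsta1*, of the alpha class, was at 8.12, 3.002 and 4.18 CPM in KO and 0.700, 0.113, 0.665 and 0.403 CPM in WT (3.32 ± 0.57 (SE), adjusted p = 0.000263), and *Gsta2* rose by 2.73. Of the mu class, *Gstm1*, *Gstm3* and *Gstm4* rose by 1.93, 2.84 and 1.66, *Gstm2* was also called higher, and *Gstm5*, *Gstm6* and *Gstm7* were not called (-0.32, 0.22 and 0.0080). *Gstt1*, of the theta class, fell by 0.69. Over 22 members tested, 8 were higher and 4 lower, with a median of 0.0059, and 2 were lower without KO replicate 3 or KO replicate 4. Alpha and mu class genes are near-identical neighbours, so reads may have been split unevenly among them.

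Of the enzymes that make glutathione from cysteine, *Gclc* and *Gclm*, the subunits of the rate-limiting ligase, were not called, at 0.40 (adjusted p = 0.102) and -0.11 (adjusted p = 0.567). On the breakdown side *Chac1* rose, as given above, and *Ggct*, which cleaves γ-glutamyl amino acids, rose by 0.98. Of 21 tested genes of glutathione synthesis, recycling and breakdown 7 were higher and 5 lower, and leaving out KO replicate 3, KO replicate 4, WT replicate 1 or WT replicate 3 left 3 or 4 higher. The glutathione-using peroxidases went opposite ways, with *Gpx4*, which protects membrane lipids, at 0.60 and cytosolic *Gpx1* at -0.69, and the glyoxalase *Glo1* fell by 0.95. Both peroxidases are selenoproteins, a list in which 2 of 20 were higher and 8 lower, or 5 and 6 with library totals alone. Its largest fall was *Dio1*, which activates thyroid hormone, at 15.6, 3.96 and 14.1 CPM in KO and 134, 84.7, 84.2 and 100.3 CPM in WT (-3.21 ± 0.45 (SE), adjusted p = 3.41e-05).

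Of 17 genes of transsulfuration and the methionine cycle, 2 were higher and 3 lower, a share close to that of all genes. These were 0 and 1 without KO replicate 3, and 5 and 2 with library totals alone. Beside *Cth*, the lower members were *Nnmt* (-1.22) and *Gamt* (-0.70), which pass methyl groups to nicotinamide and to guanidinoacetate. *Cbs*, which acts just before *Cse*, was at 347, 415 and 368 CPM in KO and 430.2, 375, 416 and 379 CPM in WT, and the groups overlapped (-0.086, adjusted p = 0.614). *Mat1a*, which makes S-adenosylmethionine, stood at 0.53 (adjusted p = 0.0618). Of 12 genes that break down cysteine or oxidise its sulfur, 0 were higher and 5 lower. These were 1 and 3 without KO replicate 3, 0 and 2 without KO replicate 4, and 2 and 2 with library totals alone. *Cdo1*, the dioxygenase that commits cysteine to taurine, was called at -0.50 and lost the call without KO replicate 3 or KO replicate 4 (-0.41 in both, adjusted p = 0.0695 and 0.0605). Of 14 genes of coenzyme A synthesis and pantetheine breakdown, 2 were higher and 2 lower, or 7 and 1 with library totals alone, and the pantetheinase *Vnn1* was not called (0.76, adjusted p = 0.134).

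**Figure D3:**
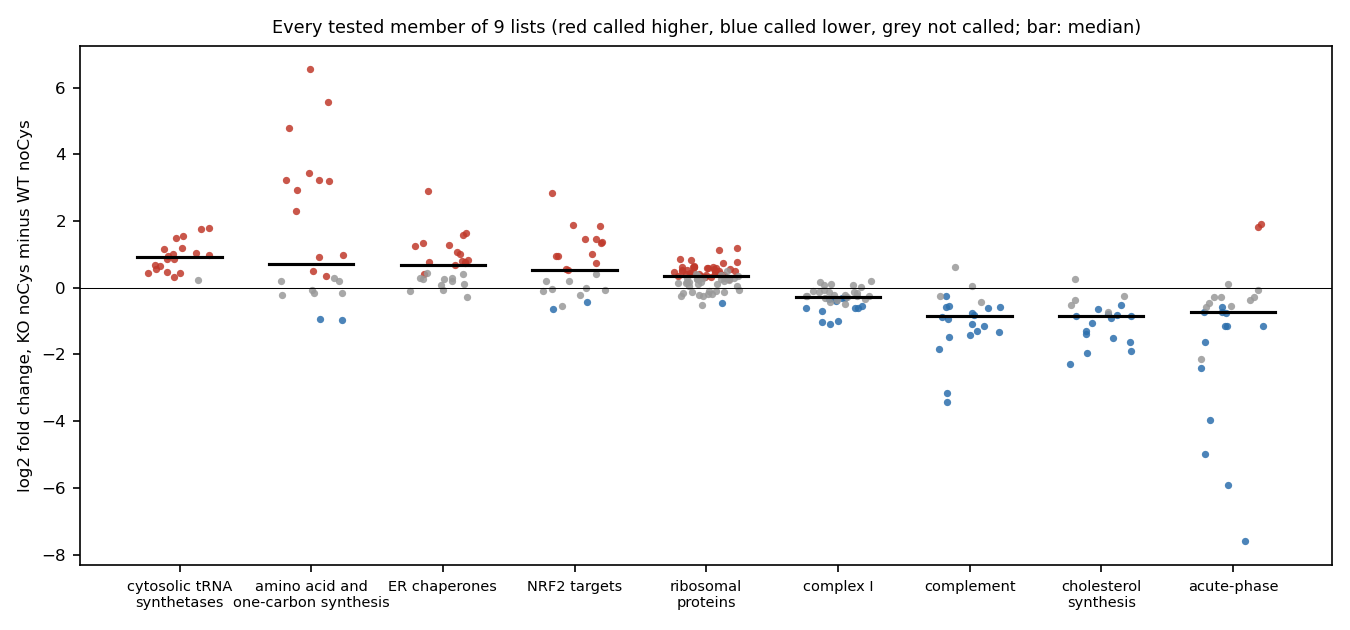
Log2 fold change, KO minus WT on the no Cys diet, of every tested member of 9 lists, 1 point per gene, red where called higher, blue where called lower and grey where not called, with a bar at the median of each list. The 20 cytosolic synthetases all lie above 0, and 19 of the 20 cholesterol synthesis genes and 20 of the 22 complement genes lie below 0.

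Most enzymes of cholesterol synthesis fell. Of 20 tested enzymes, 15 were lower (75.0% against the background of 13.4%) and 0 higher, the median being -0.85 on the log2 scale, and 11 to 16 were lower when 1 library was left out. *Fdps*, which makes farnesyl diphosphate, was at 0.902, 1.05 and 1.22 CPM in KO and 4.67, 7.55, 5.13 and 4.03 CPM in WT (-2.28 ± 0.35 (SE), adjusted p = 0.000103). *Nsdhl* and *Pmvk* fell by 1.97 and 1.51 on the log2 scale. The one member with a positive value was *Lss*, the lanosterol synthase (0.26, adjusted p = 0.324). *Srebf2*, the factor that drives this pathway, fell by 0.66, and *Insig1* and *Stard4* by 1.57 and 1.58. Over 11 genes of cholesterol uptake and SREBP2 control 7 were lower and 1 higher. The sterol element TCACNCCAC, searched after these falls had been seen, was present in 1 of the 14 matched promoters of called synthesis genes and in 1.23% of all.

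Fatty acid genes did not move as a block. *Scd1*, the desaturase that makes oleate, was at 836, 258 and 264 CPM in KO and 6881, 6979.7, 9211 and 11148 CPM in WT, a log2 fold change of -4.24 ± 0.61 (SE), or -5.03 without KO replicate 1. The synthase *Fasn* (0.23) and *Srebf1* (-0.62, adjusted p = 0.200) were not called, *Elovl5* and *Acss2* fell by 0.94 and 0.73, and *Acaca*, called at 0.60, lost the call without WT replicate 1, WT replicate 2, KO replicate 3 or KO replicate 4 (0.50 without KO replicate 3). Of 23 genes of fatty acid and triglyceride synthesis 2 were higher and 5 lower. The median of -0.12 became 0.09 with library totals alone. *Cd36*, a fatty acid importer, was at 190.5, 112 and 139 CPM in KO and 22.1, 16.1, 16.1 and 19.4 CPM in WT (2.98 ± 0.31 (SE), adjusted p = 1.33e-06), while *Slc27a5* fell by 1.06. Of 19 genes of fatty acid uptake and lipid droplets 4 were higher and 4 lower, and 1 and 1 without KO replicate 3. The lipid droplet proteins *Cidec* and *Plin2* were called at 1.48 and 1.17 and lost the call without KO replicate 3 (0.81, adjusted p = 0.186, and 0.71, adjusted p = 0.123). Of 32 genes of fatty acid oxidation and ketogenesis 6 were higher and 3 lower, with 2 higher without WT replicate 3, KO replicate 1 or KO replicate 3 and 5 lower without KO replicate 1, and the mitochondrial enzymes *Acadl* (0.018) and *Hadha* (0.0083) were not called.

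Of 19 tested apolipoproteins and lipoprotein enzymes, 10 were lower and 1 higher, and 6 were lower without KO replicate 3. *Apoc1* and *Apoc3*, which slow the clearance of triglyceride-rich particles, fell by 1.26 and 1.01, hepatic lipase *Lipc* by 1.01 and *Apoa2* by 0.67. *Apob*, the scaffold of secreted particles, was at 3412, 2883 and 2902 CPM in KO and 3496, 3391, 3319.8 and 2917 CPM in WT, and the groups overlapped (-0.10, adjusted p = 0.668). The one higher member was *Vldlr*, named above.

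Complement proteins, which the liver secretes for innate defence, had 18 of 22 tested genes lower (81.8%) and 0 higher in KO, with a median log2 fold change of -0.85. *C9*, which forms the membrane pore, was at 64.3, 35.5 and 76.6 CPM in KO and 552, 531, 548 and 469 CPM in WT (-3.16 ± 0.27 (SE), adjusted p = 1.69e-07). Other members of the same pore fell less: *C6* by 1.82, *C8a* by 1.48 and *Hc*, which encodes C5, by 1.30, while *C8b* (-0.42) was not called. The lectin *Mbl2* fell by 0.95. The largest single value, -3.44 for *Cfd*, rested on low counts (0, 0.0953 and 0.514 CPM in KO and 6.36, 0.901, 2.18 and 0.202 CPM in WT) and lost the call without WT replicate 1 (-2.19, adjusted p = 0.11), without KO replicate 3 (-2.96, adjusted p = 0.093) and with limma-voom. Without KO replicate 4 it was -5.06. The count of lower members ran from 14 to 18 when 1 library was left out.

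Among 25 acute-phase proteins 13 were lower and 2 higher, with 8 lower without KO replicate 3 or KO replicate 4. *Saa1* and *Saa2*, serum amyloid A, were at 45.1, 11.2 and 27.3 and 4.17, 4.67 and 9.06 CPM in KO, and at 4780.1, 1121, 486 and 179.8 and 3950.3, 415, 278 and 60.5 CPM in WT. WT replicate 1 was the highest library for both, and also for *Saa3* and *Orm2*. With it left out the log2 fold changes went from -7.60 to -5.38 for *Saa2*, from -5.90 to -4.44 for *Saa1*, from -4.98 to -3.67 for *Orm2* and from -3.97 to -2.11 for *Saa3*, and all 4 stayed called. Without KO replicate 1 *Orm2* stood at -5.71. *Saa1* and *Saa2* are near-identical, so reads may have been split between them. *Hp*, haptoglobin, fell by 1.16, *Orm1* by 2.42 and ceruloplasmin *Cp* by 0.73. The 2 higher members were *Hamp*, the iron hormone hepcidin, at 1226, 1707 and 1720.2 CPM in KO and 344, 577, 562 and 158 CPM in WT (1.92), and *Apcs*, serum amyloid P (1.83). Of 18 coagulation genes 9 were lower and 0 higher, and 4 were lower with library totals alone; *Vtn*, vitronectin, fell by 0.90 and *F9* by 0.48. *Trf*, transferrin, the most abundant carrier of plasma iron, was at 357, 316 and 471 CPM in KO and 1331, 1601, 2096 and 1197 CPM in WT (-2.03).

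Because cysteine was the missing amino acid, the share of cysteine codons was compared, using the coding sequence of 12298 tested genes. The median share was 1.91% over all of them, 1.74% in the 1901 called higher and 1.98% in the 1746 called lower. For tryptophan, which this diet kept, the medians in the same order were 1.09%, 1.05% and 1.26%, and for methionine 2.15%, 2.17% and 2.21%. A lower share in the higher genes than in the lower ones was thus not confined to cysteine. The percentage of genes called higher was 18.5% where cysteine made up less than 1% of codons and 5.04% where it made up 8% or more. The percentage called lower was 13.8% and 17.6% in the same classes. In the richest class, 119 genes, 6 were higher and 21 lower: *Wfdc2*, *Tff3* and *Wfdc21*, small secreted proteins held by disulfides, stood at -4.97, -4.54 and -2.52, and *Wfdc2* at -5.63 without KO replicate 4, while *Hamp* (1.92), *Creld2* (1.65) and *Creld1* (0.82) rose. *Wfdc21*, the most abundant of the 3 that fell, was at 180.0, 95.6 and 147 CPM in KO and 849, 819, 899 and 663 CPM in WT.

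Weighting the codons of each gene by its reads per base of exon gave the cysteine share of the codons in the whole mRNA pool of a library. It was 2.32%, 2.17% and 2.18% in the KO libraries and 2.45%, 2.42%, 2.46% and 2.47% in the WT libraries, a difference of -0.23 percentage points. The groups did not overlap, and the exact two-sided permutation test gave p = 0.0571, the smallest that 3 against 4 libraries allow. With *Alb*, a cysteine-rich and abundant transcript, left out, the difference was -0.012 percentage points (exact permutation p = 0.4) and the groups overlapped. With the 20 most abundant genes left out it was -0.061 (exact permutation p = 0.0571). Tryptophan codons differed by 0.025 percentage points over all genes (exact permutation p = 0.286), by -0.033 without *Alb* and by -0.038 without the 20 genes (p = 0.0571 in both). Methionine codons differed by 0.033, -0.033 and 0.018 percentage points in the same order (exact permutation p = 0.0571, 0.171 and 0.0571).

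**Figure D4:**
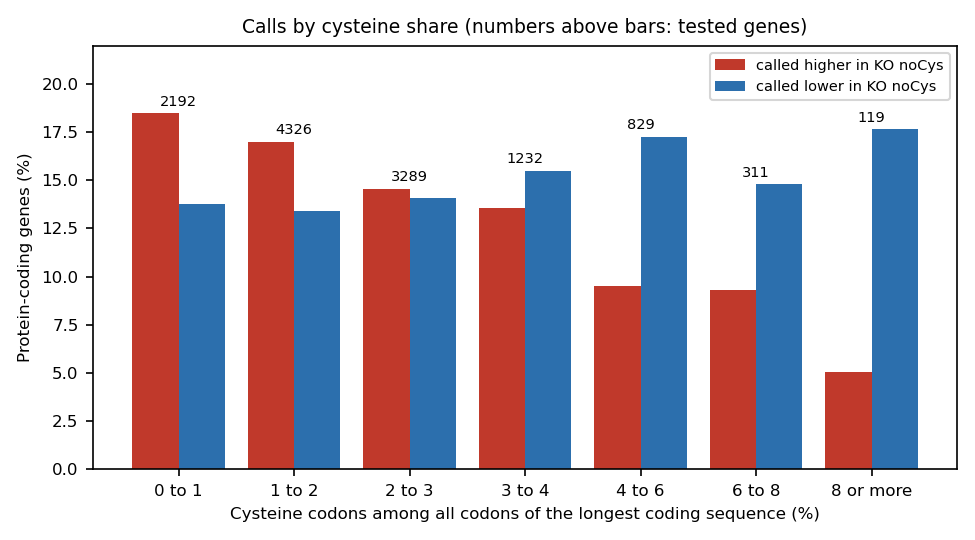
Percentage of protein-coding genes called higher (red) and called lower (blue) in KO against WT on the no Cys diet, by the share of cysteine among the codons of the longest coding sequence, with the number of tested genes above each pair of bars. The red bars go from 18.5% in the class with least cysteine to 5.04% in the class with most.

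Of 24 tested genes of growth hormone signalling and male-biased liver expression, 12 were lower and 0 higher, with a median log2 fold change of -0.99. *Selenbp2* was at 6.99, 2.91 and 13.2 CPM in KO and 67.0, 279, 340.5 and 365 CPM in WT (-5.10), and *Serpina12*, which encodes the adipokine vaspin, at 2.37, 1.29 and 1.29 and 50.2, 51.8, 119 and 13.6 CPM (-5.23). Without KO replicate 4 the value of *Selenbp2* was -5.81, and without WT replicate 3 that of *Serpina12* was -4.62. The growth hormone receptor *Ghr* fell by 1.17, the urinary protein *Mup3* by 1.57 and *Elovl3*, a fatty acid elongase, by 1.63, while *Stat5a* (-0.10) and *Stat5b* (0.0070) were not called. *Igf1*, the main endocrine product of this axis, was called at -0.59 and lost the call without KO replicate 3 (-0.47, adjusted p = 0.0567), and its plasma carrier *Igfals* fell by 0.76. The list of secreted stress hormones and their receptors, which holds these with *Fgf21* and *Gdf15*, had 1 higher and 4 lower of 11 tested, and 2 lower without KO replicate 3. The female-biased list had 9 tested genes, 2 higher and 2 lower, and 0 lower without KO replicate 3 or KO replicate 4. *Cyp2b9* (39.2, 5.19 and 6.17 CPM in KO and 0.467, 0, 0.285 and 0.453 CPM in WT, 5.49) lost its call with limma-voom and without KO replicate 1 (3.99, adjusted p = 0.0576). *Selenbp2*, *Mup3* and *Cyp2b9* belong to families of near-identical genes, so their counts are uncertain.

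Some nuclear genes of the respiratory chain were lower. Of 37 complex I genes 13 were lower and 0 higher (median -0.28), and of 38 genes of complexes II to V 18 were lower and 1 higher (median -0.33). These counts were 8 and 11 lower without KO replicate 3. With library totals alone they were also 8 and 11 lower, and 4 members of each list were then higher. *Ndufa1* and *Ndufb2* of complex I fell by 1.07 and 1.03, *Uqcr11* of complex III by 0.91 and *Atp5k* of ATP synthase by 1.13. Of the 21 tested transcripts encoded by the mitochondrial genome, 10 were lower and 0 higher, with 3 of 11 protein-coding, both ribosomal RNAs and 5 of 8 transfer RNAs. Since the RNA was selected for poly(A) tails, ribosomal and transfer RNAs were captured incidentally.

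Other liver functions were described by the same counts. Of 35 cytochrome P450 genes of families 1 to 3 and their receptors, 4 were higher and 8 lower: *Cyp2b10*, the classical target of the receptor CAR, was at 0.789, 0.381 and 0.0643 CPM in KO and 2.28, 3.94, 7.50 and 2.82 CPM in WT (-3.45), *Cyp2c29* and *Cyp3a11* fell by 1.65 and 1.24, and *Cyp2a5* and *Cyp1a2* rose by 1.71 and 0.97. Of 23 bile acid genes 3 were higher and 8 lower. Of these, 2 were lower without WT replicate 2 or KO replicate 3, 4 without WT replicate 1 or KO replicate 4, 5 without WT replicate 4 and 3 with library totals alone. *Cyp39a1*, an oxysterol hydroxylase, rose by 1.45, and *Cyp7a1*, the rate-limiting enzyme, was called at -1.42 but lost the call without WT replicate 2, KO replicate 1 or KO replicate 3 (-1.17, -1.29 and -1.18). Of 27 urea cycle and amino acid breakdown genes 3 were higher and 7 lower. Without KO replicate 3 these were 1 and 2, without KO replicate 4 there were 4 lower, and without WT replicate 1, 2 or 3 or KO replicate 1 there was 1 higher. *Otc*, which makes citrulline, was at 223, 118 and 167 CPM in KO and 359, 423, 419 and 429 CPM in WT (-1.27 ± 0.15 (SE)), while *Cps1* (0.034) and *Ass1* (-0.14) were not called. Of 28 genes of gluconeogenesis, glycolysis and glycogen 2 were higher and 4 lower, or 7 and 3 with library totals alone. The proteasome list (44 tested) held 11 higher and 5 lower genes, with 4 higher without KO replicate 3, 7 without WT replicate 4 and 24 with library totals alone. The 3 catalytic subunits of the immunoproteasome were among the lower ones: *Psmb8* (-1.83, overlapping Gm20496), *Psmb9* (-1.19, overlapping *Tap1*) and *Psmb10* (-0.99). Of 19 clock genes 7 were lower and 0 higher, 3 without KO replicate 3 and 2 with library totals alone, with *Usp2* at -1.17 and the core factors *Clock* (0.10) and *Arntl* (0.56) not called.

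In the remaining lists, the counts called higher and lower were read against a background of 14.8% and 13.4%. They are stated in brackets for genes of iron and iron-sulfur clusters (1 of 23 higher, 2 lower), tryptophan breakdown and NAD synthesis (1 of 16 and 3), sulfation and glucuronidation (3 of 22 and 3), NADPH-producing enzymes (3 of 12 and 3), autophagy and lysosome (4 of 24 and 5), p53 targets and cell cycle (0 of 15 and 3) and the immediate early response (1 of 20 and 5). Of the immediate early genes 1 was lower without KO replicate 3, 2 without WT replicate 2 or 3 and 3 without KO replicate 1 or 4, of the NADPH list 1 without WT replicate 4, KO replicate 3 or KO replicate 4, and of the tryptophan list 6 without KO replicate 1. Leaving out KO replicate 3 moved the count of called members by over 1.5 times for 19 of the 42 lists, KO replicate 4 for 4, WT replicate 1 for 3, and WT replicate 2 and WT replicate 3 for 2 each. Leaving out KO replicate 1 or WT replicate 4 moved it for 0. Scaling by library totals alone moved it for 8 lists, and gave 10 higher and 3 lower genes of autophagy and lysosome, 6 and 1 of the NADPH list, 6 and 3 of sulfation and glucuronidation and 5 and 1 of the iron list.

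Markers of cell types were checked beside these results, since in whole tissue fewer cells of a type and less RNA per cell cannot be told apart. The 10 hepatocyte markers summed to 52277 to 75349 CPM of library totals in KO and 93839 to 104218 CPM in WT, with 3 of 10 lower (*Alb*, *Ttr* and *Serpina1c*) and none at 0. Of 6 tested cholangiocyte markers 2 were lower (*Sox9* and *Spp1*), and the 8 listed summed to 17.3 to 20.9 CPM in KO and 32.5 to 55.1 CPM in WT. *Sox9* (-1.12) lost its call when WT replicate 3, WT replicate 4, KO replicate 3 or KO replicate 4 was left out (-0.83, -1.16, -1.19 and -0.90). The stellate cell list (2 of 10 lower), the endothelial list (3 of 10 lower) and the Kupffer cell and leukocyte list (1 of 12 lower, with *Ly6g* at 0) had sums that overlapped between genotypes. The markers *Col1a2* (-0.89), *Col3a1* (-1.13), *Pecam1* (-0.49) and *Tek* (-0.65) were not called without KO replicate 3, *Tek* lost its call in 6 of the 7 repeats with 1 library left out, and *Cd5l*, the Kupffer cell gene, and *Col1a2* in 5 each. Of 5 tested erythroid markers 3 were lower, and their sums were 138 to 176.0 CPM in KO and 176.3 to 351 CPM in WT. The adipocyte list, which includes *Cfd*, *Cidec* and *Fabp4* (the last called at -0.81, and -0.71 with an adjusted p of 0.0627 without KO replicate 3), ran from 312 to 691 CPM in KO and 595 to 781 CPM in WT. The part of these shifts in the results above was not tested. Markers of muscle and pancreas summed to at most 5.03 and 17.6 CPM. All 21 libraries showed male expression of sex-linked genes. Of these 5 genes 2 were called higher in KO, *Kdm5d* (0.71) and *Uty* (0.51), and the 5 summed to 167 to 185 CPM in KO and 115 to 135 CPM in WT. *Uty* lost its call without KO replicate 1 (0.39) or KO replicate 4 (0.49).

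Fewer genes were called between genotypes on the other diets. There, 46 genes (0.32%) were called between KO and WT on the control diet, 10 higher (0.0696%) and 36 lower (0.251%), and 28 (0.195%) on the no Trp diet, 10 higher (0.0696%) and 18 lower (0.125%). Testing the difference between differences in the same fit called 1069 genes (7.44%) for the no Cys against the control diet, 512 more positive (3.56%) and 557 more negative (3.88%), and 912 (6.35%) for the no Cys against the no Trp diet, 477 more positive (3.32%) and 435 more negative (3.03%). These tests use the same no Cys libraries as the comparison above, and the no Trp diet had only 2 WT libraries. For *Psat1* the log2 fold change was 6.55 on the no Cys, 2.43 on the control and 1.93 on the no Trp diet, and the no Cys value exceeded the others by 4.12 (adjusted p = 0.0141) and 4.62 (adjusted p = 0.000330). *Nupr1* and *Mthfd2* exceeded their control-diet difference by 3.85 and 3.75, and *Pck2*, which stood at 0.19 on the control and 0.13 on the no Trp diet, exceeded them by 3.26 and 3.32. The difference of *Psat1* from the no Trp diet was 3.597 without WT replicate 1 of that diet and stayed called with any 1 library left out. The differences from the control diet ran from 3.87 to 4.98 for *Psat1* and from 3.28 to 4.34 for *Nupr1* when 1 library was left out; that of *Psat1* lost its call without WT replicate 1 or 2 on the control diet, and that of *Nupr1* without WT replicate 2 or 3 there. For *Cth* the difference from the control diet, -1.01, was not called (adjusted p = 0.165). Without KO replicate 3 on the no Cys diet the counts were 430 and 416, and the first was 640 or 697 without WT replicate 1 or 2 on the control diet and 701 without KO replicate 4 on the no Cys diet.

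**Figure D5:**
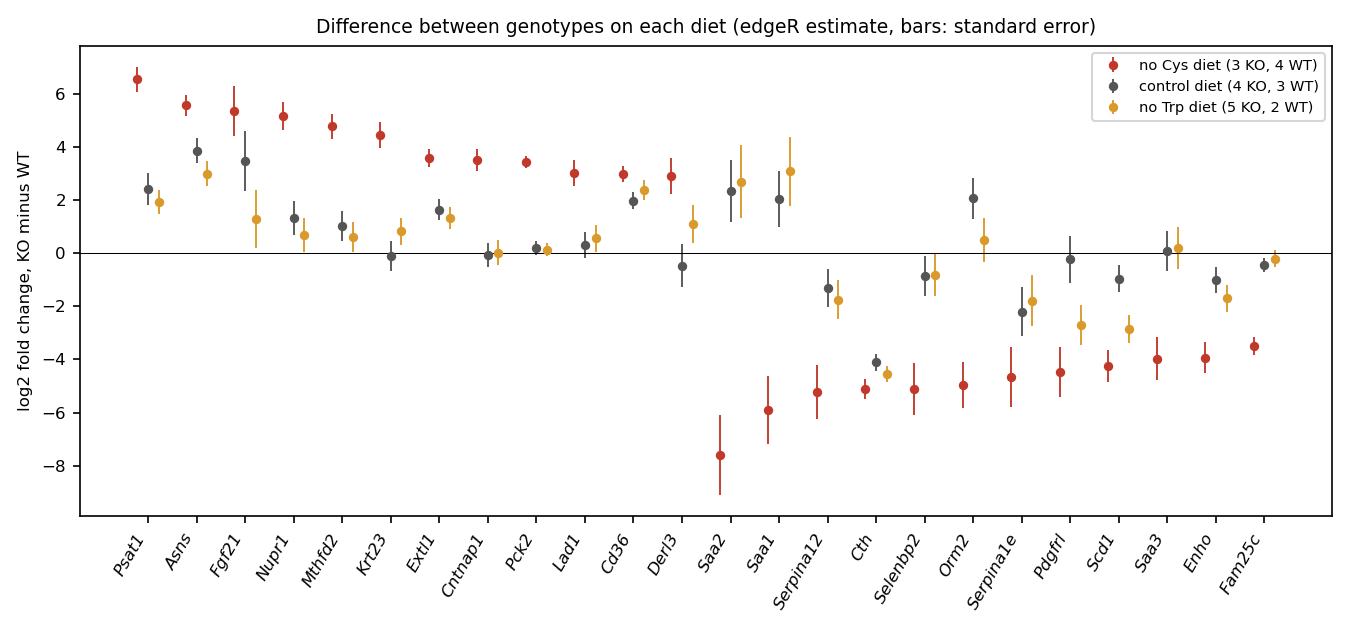
Log2 fold change, KO minus WT, of the 24 genes with the largest called rises and falls without cysteine, on the no Cys diet (red), the control diet (grey) and the no Trp diet (orange), with bars of 1 standard error from the edgeR fit. *Cth* is similarly low on the 3 diets, whereas *Pck2*, *Cntnap1* and *Lad1* lie near 0 on the control diet.

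The same tests were counted over gene lists. Of the 20 cytosolic tRNA synthetases 11 had a significantly more positive genotype difference without cysteine than on the control diet, and 11 than on the no Trp diet, against 3.56% and 3.32% of all tested genes. Of the 20 cholesterol synthesis genes 16 and 15 were more negative, and of the 22 complement genes 11 and 8, against 3.88% and 3.03% of all tested genes. *Fdps* stood at 0.93 on the control and 0.82 on the no Trp diet, and *C9* at -0.27 and -0.076. For the ER list 9 of 27 genes were more positive than on the control diet and 1 than on the no Trp diet, and *Hspa5* stood at 0.042 on the control and 0.39 on the no Trp diet. Of 24 NRF2 genes 9 and 8 were more positive, with *Nqo1* at 0.25 and -0.16 on the other diets. For 80 cytosolic ribosomal proteins the counts were 10 and 33.

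Genes near *Cth* can carry alleles of the strain in which the deletion was made. Within 5 Mb of *Cth* on chromosome 3, 18 genes were tested and 6 called (33.3% against 28.2% of all genes), within 20 Mb 90 were tested and 26.7% called. Apart from *Cth*, the gene called within 5 Mb on the no Cys diet and on another diet as well was Gm43314 (-5.16, or -6.05 without KO replicate 3), which lies inside the span of *Cth*.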

How the data were processed

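Poly(A) RNA of mouse liver was sequenced from both ends of the fragments. Per the labels, the authors aligned reads with HISAT2 2.1.0 to GRCm38 and counted them per gene with HTSeq 0.11.0, and the deposited values are raw whole-number counts. Neither the gene annotation behind the counts nor whether strand was used is given in the sources used here. Exon overlaps are stated for some genes only, and others named above also overlap neighbours, such as *Acss2* with *Gss* and *Ndufb2* with *Braf*. The table held 46078 gene identifiers, 45229 of them in GENCODE M21 (the other 849 took 0.0536% of all counts), no row without a gene, and 1 column that matched no sample and was not used.

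Counts were analysed here with edgeR 4.0.16 (R 4.3.3). Low genes were removed by filterByExpr (6 groups, minimum count 10, minimum total 15), libraries were scaled by TMM, and all 21 libraries were fitted in 1 model by group. The quasi-likelihood test of KO against WT was two-sided, adjusted by Benjamini-Hochberg over the 14370 genes tested and called under 0.05. The SE is the log2 fold change divided by the root of the F statistic. The scripts were tested on simulated data. Replicates were labelled as biological, 1 library each. Groups and replicates came from the sample titles. Same-numbered KO and WT libraries did not deviate together, so no pairing was assumed.

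The comparison, the gene lists and the rule for named genes were chosen with earlier results of these data known. The rule took *Cth*, the 12 largest rises and falls among called genes that average over 2 log2 CPM and whose groups do not overlap, up to 3 rises and 3 falls per list with its most abundant member, genes the study's text names for liver, genes near *Cth*, the largest differences between diets, and the most changed genes with over 8% cysteine codons. Other list members were picked with their values in view. Some genes that this rule names are not reported here. The fits were repeated with DESeq2 1.42.0, limma-voom with quality weights (limma 3.58.1), RLE size factors, library totals alone, no filter, the compared groups alone, a block for the replicate number, and leaving out 1 compared library at a time. Coding sequences and coordinates came from GENCODE M21, and promoters from RefSeq (GRCm38.p6). The ER stress and sterol elements, and the codon pool without the most abundant genes, were added after the data were seen.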

Additional observations from a re-analysis of the deposited data

Results flagged for a closer look

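In 3 of the 24 genes shown by library, 1 of the 4 WT libraries on the no Cys diet stood apart by Dixon's test. *Saa2* was at 3950 CPM in WT replicate 1, with the next library at 415 CPM, and *Saa3* was at 105.5 CPM in the same library, with the next at 15.8 CPM. *Pdgfrl*, a receptor-like gene, was at 26.1 CPM in WT replicate 2, with the next at 9.74 CPM. Chance alone flags about 1 in 20 groups.

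For 17 of these genes with the largest rises and falls the genotype difference without cysteine differed from that on the control diet in the test of the difference itself, and for 13 also from that on the no Trp diet. Over all tested genes these shares were 7.44% and 6.35%; the genes were chosen for their difference on the no Cys diet, which enters both tests, so the count is a description and not independent evidence. Among the falls, the difference between the no Cys and the control diet, and between the no Cys and the no Trp diet, was -9.94 and -10.29 for *Saa2*, -7.94 and -8.98 for *Saa1*, -7.04 and -5.48 for *Orm2*, -4.07 and -4.16 for *Saa3*, and -3.05 and -3.28 for *Fam25c*. Against the control diet alone it was -4.24 for *Selenbp2*, -4.25 for *Pdgfrl*, -3.28 for *Scd1* and -2.92 for *Enho*, whose exons overlap those of *Dnaic1*. For *Saa2*, *Saa1* and *Orm2* both differences exceeded in size the no Cys values themselves (-7.60, -5.90 and -4.98). The estimates of these genes were therefore positive, KO above WT, on the other diets. Among the rises, the same pair of differences was 4.12 and 4.62 for *Psat1*, 3.85 and 4.48 for *Nupr1*, 3.75 and 4.17 for *Mthfd2*, 4.57 and 3.63 for the keratin *Krt23*, 3.57 and 3.48 for *Cntnap1*, whose exons overlap those of *Plekhh3*, 3.26 and 3.32 for *Pck2*, 2.70 and 2.45 for *Lad1*, and 1.93 and 2.25 for *Extl1*. *Asns* differed from the no Trp diet alone, by 2.57. This is less than its 5.56 on the no Cys diet, so its estimate was higher in KO on the no Trp diet as well. Leaving out any 1 of the 14 libraries compared kept the call against the control diet for 9 of the 17 genes. The call was lost without 12 of these libraries, in turn, for *Pdgfrl* (range -4.65 to -3.63), 9 for *Selenbp2* (-4.95 to -3.81), 6 for *Extl1* (1.71 to 2.21), 5 for *Saa3* (-4.42 to -2.21), 2 for *Psat1* (WT replicates 1 and 2 on the control diet), 2 for *Nupr1* (WT replicates 2 and 3 there), 2 for *Lad1* (WT replicate 3 there and KO replicate 3 on the no Cys diet, 2.07 to 3.09) and 2 for *Enho* (WT replicate 1 on the control diet and KO replicate 3 on the no Cys diet, -3.34 to -2.25). Among the 9 that kept it, the difference without WT replicate 1 on the no Cys diet was -7.71 for *Saa2*, -6.49 for *Saa1* and -5.74 for *Orm2*, that without KO replicate 1 was -4.07 for *Scd1* and -7.77 for *Orm2*, that without KO replicate 3 was 2.78 for *Cntnap1*, and that without WT replicate 4 was 5.22 for *Krt23*. Against the no Trp diet, which had 2 WT libraries, leaving out WT replicate 1 of that diet ended the call for *Saa1*, *Saa2*, *Saa3*, *Extl1*, *Mthfd2* (3.13) and *Asns* (1.75), and leaving out WT replicate 2 ended it for *Orm2* and *Lad1* (1.39). *Cntnap1* stood at 2.69 without KO replicate 3 on the no Cys diet, and without WT replicate 4 there *Krt23* stood at 4.29. *Psat1* stood at 3.597 without WT replicate 1 on the no Trp diet, and these 3 kept the call. *Lad1* lost this call without 9 libraries in turn and *Saa3* without 5, and *Saa2*, *Saa1*, *Saa3*, *Orm2* and *Asns* stood at -8.07, -7.52, -2.30, -4.18 and 3.16 without WT replicate 1 on the no Cys diet. Without WT replicate 2 on the no Trp diet *Saa2*, *Saa1* and *Saa3* stood at -11.34, -9.91 and -5.20, and without WT replicate 1 there *Orm2* and *Lad1* stood at -6.82 and 3.08.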

How the results depend on the processing

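The calls between KO and WT on the no Cys diet, 4055 in all, ran from 2358 (without KO replicate 3) to 3895 when 1 compared library was left out, and from 3443 to 5363 under the other alternatives. Scaling by library totals alone gave 3944 higher and 983 lower, which raised the share of calls in the higher direction from 52.5% to 80.0%. For the differences between diets the same scaling gave 855 more positive and 323 more negative genes against the control diet, and 1023 and 233 against the no Trp diet. The replicate number as a block gave 3504 calls, and 817 and 630 for the differences between diets; the numbers did not pair the samples, as deviations of same-numbered KO and WT libraries correlated at 0.0051, -0.093 and 0.015. Against the control diet, the 1069 calls for the difference became 2179 with limma-voom and 430 to 1399 with 1 library left out. Against the no Trp diet, the 912 calls became 553 with limma-voom and 416 to 1179 with 1 library left out; where 1 WT library remained on that diet, it was assumed to vary like the other groups. Of 228 named genes that were called, 155 stayed called in every alternative that tested them (14, or 8 for *Prom1*). The sign turned in 17 cases, all of genes not called. With library totals alone these were *Nudt7* (0.019), *Aldh1l1* (0.13), *Igfbp4* (0.15) and *Atp5b* (0.17), and *Fmo2* turned with limma-voom (-0.23) and with the block (-0.078). With 1 library left out, values ran from -0.40 to 0.041 for *Nudt7*, -0.17 to 0.013 for *Aldh1l1*, -0.14 to 0.018 for *Igfbp4*, -0.12 to 0.015 for *Atp5b*, -0.35 to 0.31 for *Fmo2*, -0.011 to 0.15 for *Slc38a3*, -0.024 to 0.18 for *H6pd*, -0.0046 to 0.17 for *P4hb* and -0.025 to 0.33 for *Bax*. The cause was not tested. With 3 and 4 animals a group, a missed call does not show equal levels.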
